A study of Mus musculus with 9 samples.

Results

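Keratins of simple epithelia (Krt7, Krt8, Krt18, Krt19 and Krt20) and 4 small proline-rich proteins (Sprr1a, Sprr2a, Sprr2b and Sprr2f) were described in RNA of Glis3 mutant and wild-type (WT) mice on postnatal day 3 (PND3). The 9 genes were chosen by name when ratios of these same arrays were already known, so their ratios are a description and carry no test. Every probe that the array assigns to them was used, which gave 12 probes of 41174 and 9 of 28786 gene names, of which 20922 were measured. The series set mice homozygous for the Glis3zf allele against WT mice. The allele lies in Glis3, which encodes a transcription factor with zinc fingers. The mutant pool held RNA of 2 Glis3zf/zf pups and the WT pool held RNA of 2 pups, all of the C57BL/6 strain and all labelled as pancreas. The pools shared each of 2 Agilent 2-colour arrays, with mutant RNA in Cy3 on one array and in Cy5 on the other, from 500 ng of RNA for each labelling. The arrays are a technical pair of 1 pool per genotype, so they count as 1 replicate and no p-value is given. The labels give neither the sex of the pups nor the construction of the allele. Arrays of embryonic day 15.5 were not analysed here, because no table pairing their probe sets with genes was used.

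Keratins are the intermediate filament proteins of epithelial cells, and each filament pairs a type I with a type II keratin. Krt8 (type II) and Krt18 (type I) form the filaments of simple, single-layered epithelia such as kidney tubules and pancreatic ducts. Krt7 (type II) and Krt19 (type I) join them in duct-like epithelia, and Krt20 (type I) is typical of gut and urothelial surface cells. Small proline-rich proteins are crosslinked by transglutaminases into the cornified envelope of stratified epithelia, and Sprr2 genes are also known to be induced by oestrogen in mouse uterus.

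Each array held 43379 spots that were not controls. Between 72.8% and 76.6% of them were well above background per channel, and none was saturated. Signals are the scanner software's processed signals in arbitrary units, and where a pair of values is given the first is from the array with mutant RNA in Cy3. Ratios are log2 of mutant over WT after loess normalization, as the mean of both arrays unless both are given. Across the measured genes the arrays differed by a median of 0.11 on that scale, and the median ratio was -0.01. The probe of Glis3 was well above background on both arrays in the WT pool and on neither in the mutant pool. Its signals were 3.88 and 3.39 in the mutant pool, against 22.1 and 21.5 in the WT pool, at least 1.16-fold lower. The position of that probe relative to the mutation was not known, so it checks no label.

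The labelled tissue was set against its markers first. Of 13 pancreatic acinar and islet markers 12 were on the array and 8 were measured, all 8 well above background in both pools. The hormone genes Ins1, Gcg and Ppy and the elastase gene Cela2a were not well above background. All 9 proximal tubule markers, all 8 thick limb and distal tubule markers and 16 of 17 collecting duct markers were well above background in both pools. The islet hormone genes Ins2 and Sst were among the 8 pancreatic markers measured. Ins2 had signals of 94.1 and 84 in the mutant pool, against 99.2 and 78.7 in the WT pool. Sst had 28 and 23 in the mutant pool, against 28 and 23.5 in the WT pool. Hormone genes, which define endocrine pancreas, were thus seen only in part in RNA labelled as pancreas. Nearly all of these kidney tubule markers were seen, but 72.8% to 76.6% of all non-control spots pass that flag per channel. The 8 measured acinar and islet markers had summed signals of 1467 and 1294 in the mutant pool, against 1545 and 1310 in the WT pool. The 8 thick limb and distal tubule markers had 118244 and 108010 in the mutant pool, against 121010 and 115040 in the WT pool. Levels of single probes are not comparable, and the RNA is called here by genotype only.

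The probes that carry the keratin and Sprr values are shown next, because the members belong to gene families whose copies can share sequence. The first 30 of 60 bases are given in lower case for the probes of Sprr2f, of Krt18, and of the genes with a pair of probes.
Sprr2f: atgggtcttgttccattgttcagtatgaca
Krt18: ggatggcagagtggtgtccgagactaatga
Krt8, brighter probe: tggtgtccgagtcttctgatgtcgtgtcca
Krt8, dimmer probe: ccgaggatcagccctaatcctctggccaac
Krt7, brighter probe: tggaagatagtctgaaactgctgttggctt
Krt7, dimmer probe: cagcatcgcagaggctgaggaacaagggga
Sprr2a, brighter probe: tacagttgatgtgccagcctgcaccaccta
Sprr2a, dimmer probe: agaagtgaccacccaacaggtgaaggcctc

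None of the 7 keratin member probes and not the Sprr2f probe shared a run of 20 bases with any of the other probes on the array. Probes were compared with probes and not with whole transcripts, so whether they read RNA of related genes was not tested. The Sprr2f probe shared at most 7 bases in a row with a probe of another Sprr gene. By contrast, the probes of Sprr2b, Sprr2e and Sprr2k held a common run of 20 bases, shown in capitals within the whole probes, so each of these probes may read RNA of the others.
Sprr2b: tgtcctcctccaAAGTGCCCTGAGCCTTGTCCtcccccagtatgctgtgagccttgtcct
Sprr2e: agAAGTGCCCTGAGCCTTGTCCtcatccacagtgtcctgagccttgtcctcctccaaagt
Sprr2k: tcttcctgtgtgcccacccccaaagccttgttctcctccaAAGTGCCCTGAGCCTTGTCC

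On each array all 12 probes were well above background in both pools, so no member was lost to a filter on dim probes. On both arrays, 8 of 9 members had a higher signal ratio in the mutant pool by any amount, against 30.8% of all measured genes, and none was lower on both, against 37.9%. With each array centred on its median in place of loess, 5 of 9 were higher on both (Krt7, Krt8, Krt18, Krt19 and Sprr2f), against 19.2%. With that centring 1 of 9 was lower on both, against 54.4%. Sprr2f alone was 2-fold or more higher on both arrays, that is 1 of 9 members against a background of 0.0335% (7 genes). No member was 2-fold lower, against 0.158% of genes, and 0.191% of genes (40) were 2-fold apart in either direction. At 1.5-fold, chosen with the values in view, Krt8 and Krt18 joined Sprr2f, that is 3 of 9 members against 0.253% (53 genes). With median centring that call was lost for Krt8 and Krt18 and Sprr2f alone remained past 1.5-fold, against 0.105% of genes (22). Both mutant signals lay above both WT signals for the probes of 7 of 9 members (Krt7, Krt8, Krt18, Krt19, Krt20, Sprr1a and Sprr2f), as they did for 19.4% of all measured genes. The members were chosen from these ratios, so their counts show how far they lie from other genes and nothing more.

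**Figure D1:**
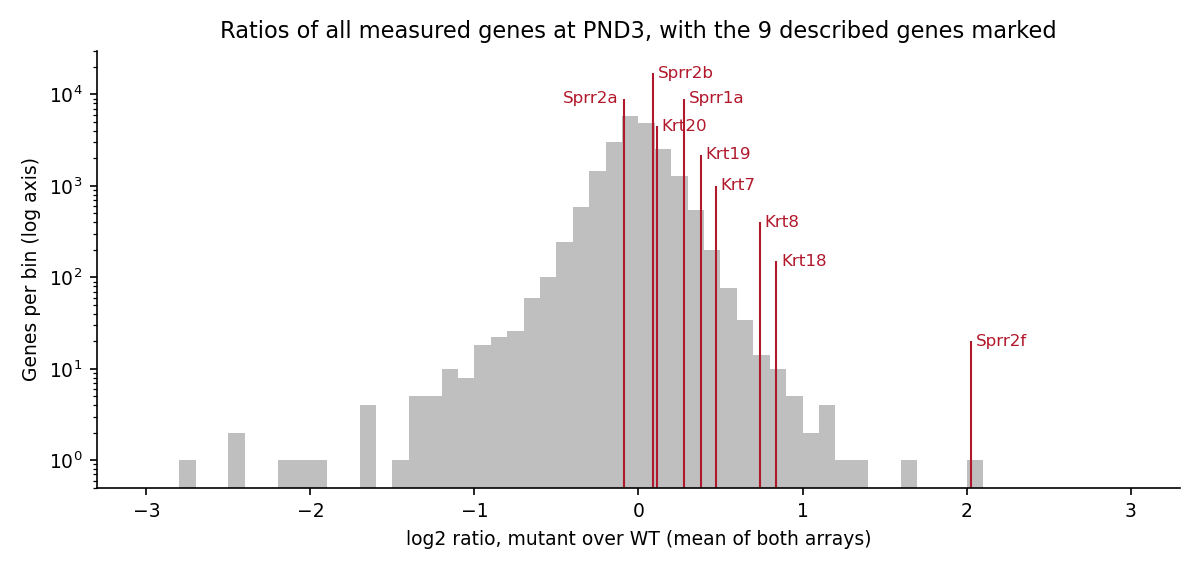
Number of measured genes (log axis) in each bin of the log2 ratio of mutant over WT at PND3, mean of both arrays, with red lines at the 9 described genes. Sprr2f lies at the upper end at 2.03, Krt18 and Krt8 at 0.84 and 0.74, and Krt20, Sprr2a and Sprr2b within the bulk of genes near 0.

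Krt18 and Krt8, the obligate partners of the simple epithelial filament, had the highest loess ratios among the keratins. In the scanner software's ratios, which add no offset of 50, Krt18 stood at 0.83 and Krt8 at 0.73, whereas Krt4, a keratin of stratified epithelia named after its values were seen, stood at 0.96. The Krt4 probe was well above background on 1 of 2 arrays in the WT pool. Krt18 had signals of 78405 and 64118 in the mutant pool, against 40759 and 38912 in the WT pool. Both mutant values exceeded both WT values, and the ratio was 0.84, or 1.79-fold, with 0.89 and 0.78 on the separate arrays. That difference of 0.11 between arrays compares with a median of 0.15 among 565 genes within 1 log2 unit of its brightness. Krt8 was read by a pair of probes. Its brighter probe had 57767 and 50396 in the mutant pool, against 32076 and 32786 in the WT pool, a ratio of 0.74 (0.79 and 0.69). Its dimmer probe had 48593 and 41244 in the mutant pool, against 31228 and 27666 in the WT pool, a ratio of 0.59 on each array. Both Krt8 probes gave higher signals in the mutant pool on each array, and the probes differed in ratio by more than the arrays did.

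Krt18 ranked at place 20 and Krt8 at place 29 of 20922 genes ordered by mean ratio. The neighbours of Krt18 in that order were Efemp1, an extracellular matrix fibulin, at 0.86 and LOC671973 at 0.84. Those of Krt8 were Wnt7b, a Wnt ligand of the collecting duct, and Atg16l2, a homologue of an autophagy protein, both at 0.74. Likeness here means only a similar mean ratio over the 2 arrays. These keratin ratios depend on how brightness is handled. With median centring, Krt18 stood at 0.55 and Krt8 at 0.47, while genes of like brightness had medians of -0.30 and -0.28 and all genes a median of -0.11. Relative to genes of their own brightness, both keratins were therefore higher in the mutant pool under either normalization.

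Krt7 and Krt19, the keratins added in ducts, had smaller ratios. The brighter Krt7 probe had signals of 46200 and 41187 in the mutant pool, against 33332 and 29905 in the WT pool, a ratio of 0.47 (0.44 and 0.51). The dimmer probe had 9416 and 7741 in the mutant pool, against 5498 and 5304 in the WT pool, a ratio of 0.65 (0.72 and 0.58). Both probes gave a higher signal in the mutant pool on each array. Krt19 had 5792 and 4967 in the mutant pool, against 4428 and 3825 in the WT pool, a ratio of 0.38 (0.31 and 0.45). Krt20, the keratin of gut and umbrella cells, had 340.6 and 307.8 in the mutant pool, against 298.9 and 279.4 in the WT pool. Its ratio of 0.11 was no larger than the median difference between arrays, although its sign was the same on both. With median centring Krt7 stood at 0.20, Krt19 at 0.16 and Krt20 at 0.01.

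**Figure D2:**
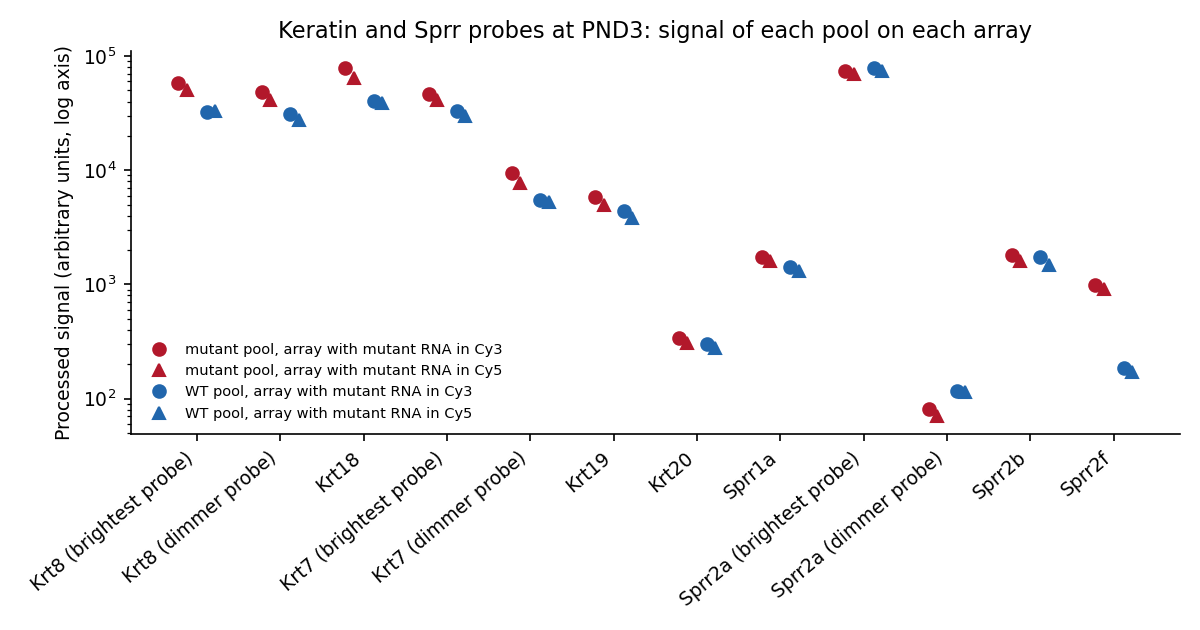
Processed signal (arbitrary units, log axis) of each of the 12 probes in the mutant pool (red) and the WT pool (blue), with circles for the array with mutant RNA in Cy3 and triangles for the array with mutant RNA in Cy5. The largest gap between pools is at Sprr2f, and levels of different probes are not comparable.

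The other keratins were read as a family beside the members. Of 41 keratin genes outside the members, 27 were measured and 14 were not well above background. Their median ratio was -0.01, as for all genes, with 10 higher and 9 lower on both arrays, none 1.5-fold apart and a highest value of 0.54. Among all genes 30.8% were higher and 37.9% lower on both arrays. With median centring the family's median was 0.09, with 14 higher and 6 lower, against a median of -0.11 for all genes with 19.2% higher and 54.4% lower. That highest value was Krt13, a keratin of non-cornified stratified epithelia, with signals of 291.2 and 255.4 in the mutant pool, against 155.4 and 174.6 in the WT pool. Among the other keratins of the stratified and basal list (13 genes, 10 measured, median 0.00), Krt15 stood at 0.35, Krt14 at 0.25 and Krt10, a keratin of differentiating epidermis, at -0.27. Of 3 further keratins of simple epithelia, Krt23 stood at 0.38, with 2187 and 1976 in the mutant pool, against 1746 and 1464 in the WT pool. Krt80 had 56.3 and 64.2 in the mutant pool, against 33.7 and 38.7 in the WT pool. Its ratio was 0.24 after loess but 0.74 by the scanner software, to whose ratios no offset of 50 was added. Krt222 stood at -0.12 after loess and -0.33 by the scanner software.

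In the RefSeq gene order of the mouse GRCm38.p6 assembly, Krt8 and Krt18 are neighbours at the end of the keratin cluster on chromosome 15. Krt18 is the type I gene within that otherwise type II cluster. Krt7 lies near the other end of it, and Krt19 and Krt20 lie in the type I cluster on chromosome 11. The measured genes between Krt7 and Krt8 had ratios on both sides of 0, so the higher ratios did not extend over all measured genes of the cluster.

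**Figure D3:**
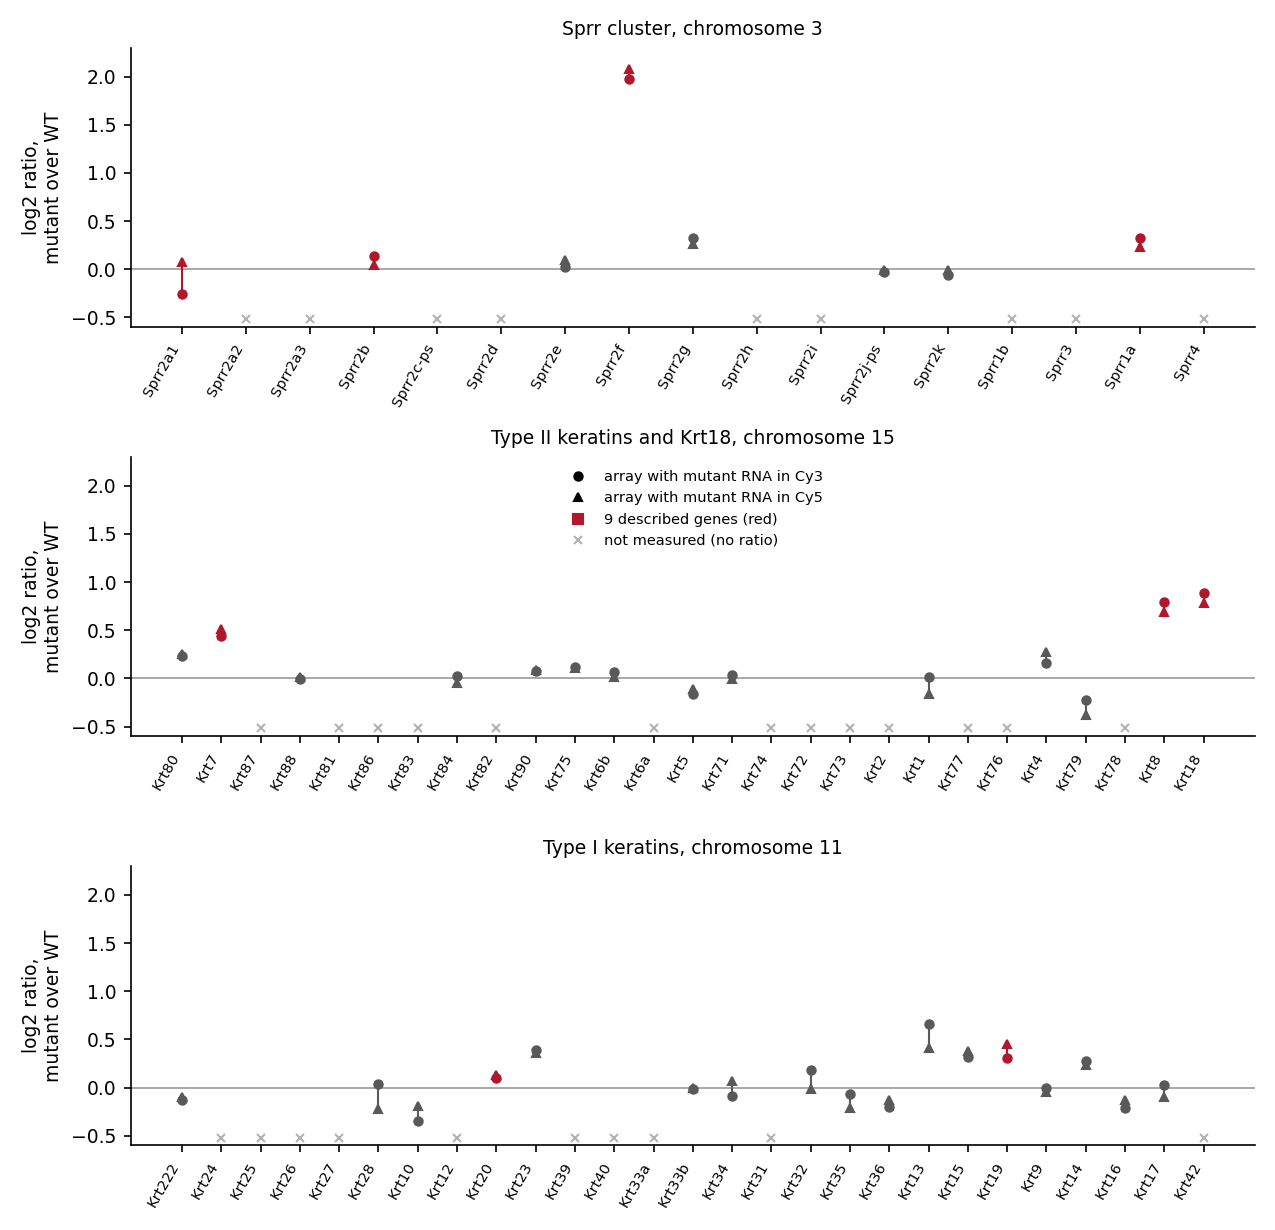
Log2 ratio of mutant over WT on each array for Sprr genes and keratins, placed in their order along chromosomes 3, 15 and 11 and not to scale, with the described genes in red and crosses for genes without a measured ratio. Sprr2f stands at 1.98 and 2.08 between Sprr2e at 0.02 and 0.10 and Sprr2g at 0.32 and 0.26, and the array's Sprr2a probe is drawn at Sprr2a1. Krt8 and Krt18 stand apart at the end of the chromosome 15 cluster.

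Sprr2f had the highest ratio of all 20922 measured genes. Its signals were 979.4 and 904.2 in the mutant pool, against 184.3 and 171.8 in the WT pool. The pools were far apart on both arrays, with a ratio of 2.03 (1.98 and 2.08), or 4.08-fold. Next in the order was Ahsg, the plasma protein fetuin-A, at 1.64. Median centring gave 1.90 for Sprr2f and the scanner software's own ratio gave 2.40. The offset of 50 added to both channels in the main processing draws ratios of dimmer probes toward 0.

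None of the other 7 measured Sprr genes had a ratio near that of Sprr2f, and 5 more were not measured. Sprr1a, an early cornified envelope precursor, had 1743 and 1615 in the mutant pool, against 1427 and 1310 in the WT pool, a ratio of 0.28 (0.32 and 0.23). Sprr2b had 1824 and 1612 in the mutant pool, against 1728 and 1490 in the WT pool, a ratio of 0.09 (0.14 and 0.04) that turned to -0.09 with median centring. Its probe is among those with a shared run, so this value may mix Sprr2b with its relatives. The brighter Sprr2a probe had 73927 and 69516 in the mutant pool, against 78094 and 73531 in the WT pool, with ratios of -0.26 and 0.08 on the separate arrays. The dimmer one had 81.2 and 69.7 in the mutant pool, against 115.4 and 114.1 in the WT pool, a ratio of -0.38 (-0.34 and -0.42). The Sprr2a probes thus disagreed: the brighter one changed sign between arrays and the dimmer one was lower in the mutant pool on both. RefSeq lists Sprr2a1, Sprr2a2 and Sprr2a3 for the older symbol Sprr2a, and which of them each probe reads was not tested.

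Of 9 Sprr genes outside the members, 4 were measured, with a median of 0.02. In gene order Sprr2f lies on chromosome 3 between Sprr2e and Sprr2g, which RefSeq lists as a transcribed pseudogene. Sprr2e, named after its values were seen, had 565.0 and 545.8 in the mutant pool, against 564.4 and 503.4 in the WT pool, a ratio of 0.06. Sprr2g had 386.3 and 337.3 in the mutant pool, against 307.3 and 259.3 in the WT pool, a ratio of 0.29. The difference at Sprr2f was thus not seen at either neighbour to a like extent. The Sprr2e probe is among those with a shared run, so its value may mix Sprr2e with its relatives. Sprr1b, Sprr2d, Sprr2h, Sprr3 and Sprr4 were not well above background, so nothing is said of them.

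Genes that build the cornified envelope with these proteins were read as a further list. The list of other Sprr and cornified envelope genes had 11 of 18 measured, a median of -0.01, and 5 members higher and 5 lower on both arrays, against 30.8% and 37.9% of all genes. Tgm1, the transglutaminase that crosslinks small proline-rich proteins, had 744.0 and 629.7 in the mutant pool, against 1349 and 1259 in the WT pool, a ratio of -0.87. It was the member of that list farthest from 0 and the only one 1.5-fold apart, against a background of 0.626% of genes lower by that much. Cdsn, a corneodesmosome protein, stood at -0.14 and Cnfn, cornifelin, at -0.11.

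**Figure D4:**
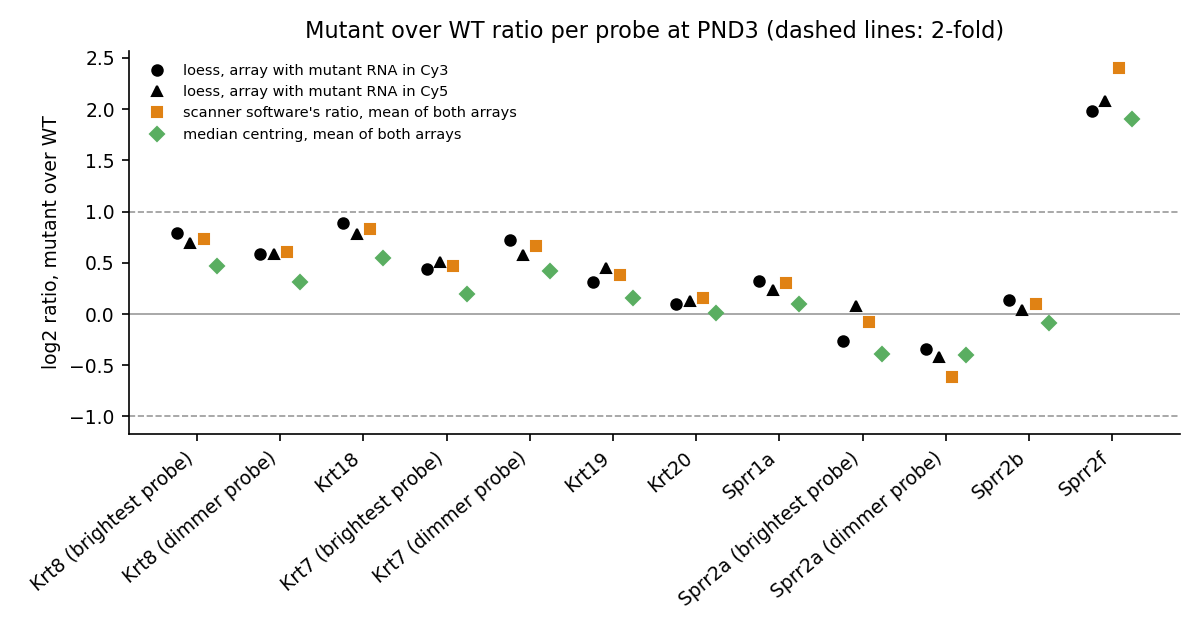
Log2 ratio of mutant over WT for each of the 12 probes after loess on each array (black circles and triangles), by the scanner software (orange squares) and with median centring (green diamonds). Sprr2f stays between 1.90 and 2.40, Krt18 between 0.55 and 0.89, and the brighter Sprr2a probe has values on both sides of 0.

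Because Sprr2f differed from its neighbours, the 250 bases before its RefSeq start are shown beside those of Sprr2e, the adjacent gene with the most similar promoter. Both regions are on the plus strand of GRCm38.p6, at chr3:92364937-92365186 for Sprr2f and chr3:92351893-92352142 for Sprr2e. Capitals mark 3 motifs. The first, TGAGTCA, is the site of the AP-1 dimer of Fos and Jun proteins. The middle one, ATTTGCAT, is the octamer of POU-domain factors. The last, TATAAA, is the TATA box near the start of transcription.
Sprr2f promoter: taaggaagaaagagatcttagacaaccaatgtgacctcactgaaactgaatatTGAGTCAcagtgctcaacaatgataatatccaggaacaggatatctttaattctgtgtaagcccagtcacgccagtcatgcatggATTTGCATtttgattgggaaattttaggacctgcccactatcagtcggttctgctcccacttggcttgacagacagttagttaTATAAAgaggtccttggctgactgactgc
Sprr2e promoter: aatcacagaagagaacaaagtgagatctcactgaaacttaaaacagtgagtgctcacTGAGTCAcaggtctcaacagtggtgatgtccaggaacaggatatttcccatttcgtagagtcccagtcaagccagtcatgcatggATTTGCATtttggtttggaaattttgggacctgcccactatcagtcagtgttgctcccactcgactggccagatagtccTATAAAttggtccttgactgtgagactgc

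The Sprr2f and Sprr2e promoters were 85.2% identical over 230 aligned bases, and each held the same 3 motifs. In Sprr2f the AP-1 motif began 197 bases before the start, the octamer 112 and the TATA box 29. In Sprr2e these distances were 193, 108 and 29. Each motif was found in 7 of 10 Sprr2 promoters, searched on both strands with no overlap between the motifs: those of Sprr2b, Sprr2d, Sprr2e, Sprr2f, Sprr2h, Sprr2i and Sprr2k. Across 32851 promoters in the RefSeq table the octamer was in 1.6%, the AP-1 motif in 4.46% and the TATA box in 12.4%. None of these 3 motifs separates Sprr2f from Sprr2e. The letters TGGGGGGT, a core of the GLIS binding motif, were in none of the 10 Sprr2 windows, in none of the windows of Krt7, Krt8, Krt18 and Krt20, and in 1.36% of all. A match or its absence describes these letters in this window and says nothing of a factor's binding.

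Genes that anchor keratin filaments were read from a list of desmosome and plakin genes. Of its 16 genes 11 were measured, with a median of 0.06, and 6 were higher and 2 lower on both arrays. Plec, the plectin that links filaments to hemidesmosomes, stood at 0.40 but with 0.18 and 0.61 on the separate arrays. Ppl, periplakin, stood at 0.37 and Jup, plakoglobin, at 0.32, while the desmosomal cadherin Dsg2 stood at -0.34. None was 1.5-fold apart on both arrays. Epithelial adhesion and polarity genes were all 17 measured, with a median of 0.11 that turned to -0.07 with median centring, 8 higher and 3 lower on both arrays. Spint1, a membrane serine protease inhibitor, stood at 0.46 and Ap1m2, an epithelial sorting adaptor, at 0.42. Ocln, occludin, stood at -0.45 and Tjp1, the tight junction protein ZO-1, at -0.42. Beside these counts, 30.8% of all genes were higher and 37.9% lower on both arrays. With median centring 4 desmosome and plakin genes were higher and 4 lower, and 4 adhesion genes were higher and 6 lower, against 19.2% and 54.4% of all genes.

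Markers of epithelia that hold these keratins were read next, and their ratios lay on both sides of 0. In bulk RNA, fewer cells of a type and less RNA per cell cannot be told apart. Of 17 collecting duct markers 16 were measured, with a median of 0.18, and 12 were higher and 3 lower on both arrays, against 30.8% and 37.9% of all genes. Their summed signal was 123232 and 108964 in the mutant pool, against 104580 and 97565 in the WT pool. Wnt7b stood at 0.74 and the vasopressin receptor Avpr2 at 0.60, whereas Hsd11b2, which inactivates glucocorticoids, stood at -0.70 and the anion exchanger Slc4a1 of intercalated cells at -0.61. With median centring the list's median was 0.02, with 8 higher and 6 lower, against 19.2% and 54.4% of all genes.

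Of 13 urothelium markers 12 were measured, with a median of 0.06, and 7 were higher and 2 lower on both arrays, against 30.8% and 37.9% of all genes. With median centring 5 were higher and 5 lower, against 19.2% and 54.4% of all genes. The summed signal of the 12 markers was 13400 and 11941 in the mutant pool, against 10248 and 9621 in the WT pool. The largest part of that sum was Gata3, with 7707 and 6845 in the mutant pool, against 5097 and 4944 in the WT pool. Gsdmc, a gasdermin, stood at 0.74, the transcription factor Gata3, also of collecting duct, at 0.54, and Upk3b and Psca at 0.28 each. The uroplakins that define umbrella cells, named after their values were seen, stood at 0.06 for Upk3a, 0.06 for Upk2, -0.02 for Upk1b and -0.15 for Upk1a. The ratios of Upk3a, Upk2 and Upk1b were smaller in size than the median difference of 0.11 between arrays. Those of Upk2, Upk1b and Upk1a changed sign between arrays. The part of collecting duct or urothelium in the keratin ratios was not tested. Of 9 pancreatic duct markers, which include Krt7 and Krt19, the median was 0.01, with Muc1 at 0.33 and the trefoil factor Tff2 at -0.51.

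Markers of reproductive tissue and of sex differed between the pools as well. Of 12 markers of ovary, oviduct and uterus 10 were measured, with a median of -1.10, 8 lower on both arrays and 5 at least 2-fold lower. Among all genes 37.9% were lower on both arrays and 0.158% at least 2-fold lower. The summed signal of the 10 markers was 745.7 and 641.9 in the mutant pool, against 3108 and 2819 in the WT pool. The oocyte genes Dppa3, Padi6, Zp3 and Gdf9 stood at -2.74, -2.46, -1.92 and -1.61. By the scanner software's ratios these were -5.10, -3.31, -3.03 and -1.94, and the mutant signal of Dppa3 was well above background on 1 of 2 arrays. Among 4 measured sex-linked genes, the Y-linked Eif2s3y, Ddx3y and Kdm5d stood at 1.29, 0.91 and 0.37 after loess and at 1.75, 1.49 and 1.22 by the scanner software. Xist stood at 0.03 and 0.02. Kdm5d had signals of 55.6 and 48.3 in the mutant pool, against 21.5 and 23.1 in the WT pool. Eif2s3y had 384.7 and 355.4 in the mutant pool, against 111.0 and 108.6 in the WT pool. Ddx3y had 207.9 and 201.1 in the mutant pool, against 72.9 and 72.5 in the WT pool. The summed signal of the 4 sex-linked genes was 11705 and 11221 in the mutant pool, against 11651 and 10223 in the WT pool. Most of that sum was Xist, with 11057 and 10616 in the mutant pool, against 11446 and 10018 in the WT pool. Of 9 testis and epididymis duct markers 4 were measured, with summed signals of 2324 and 2095 in the mutant pool, against 2274 and 2025 in the WT pool. Crisp1, an epididymal secretory protein, stood apart among them at 1.10. With 1 pool of 2 pups per genotype, the genotype and the sex make-up of the pools cannot be told apart, for Sprr2f and for the keratins alike.

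**Figure D5:**
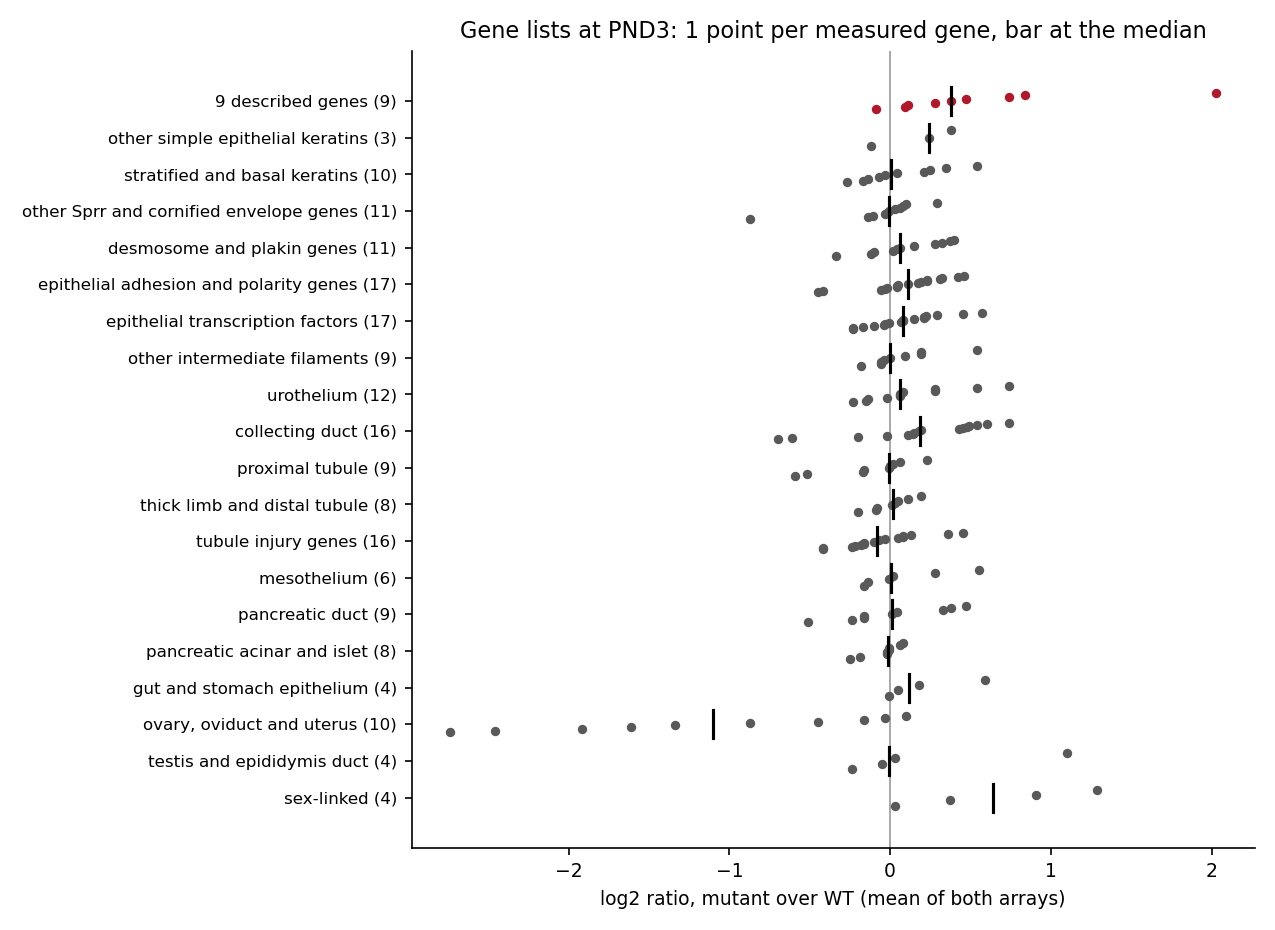
Log2 ratio of mutant over WT (mean of both arrays) of every measured gene in each list, with the number measured in brackets and a bar at the median. The 9 described genes (red) have a median of 0.38, the collecting duct list 0.18, and the ovary, oviduct and uterus list -1.10.

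Of 9 proximal tubule markers the median was -0.01, with 2 higher and 3 lower on both arrays, against 30.8% and 37.9% of all genes. The summed signal of the 9 markers was 259446 and 254106 in the mutant pool, against 332860 and 316273 in the WT pool. With median centring 1 was higher and 7 lower, against 19.2% and 54.4% of all genes. The ratios farthest from 0 were those of Kap, an androgen-regulated kidney protein, at -0.59 and of Miox, an inositol oxygenase, at -0.52 (-0.87 and -0.17). Most of the gap between the summed signals lay in Kap and Miox. Kap had 56708 and 53498 in the mutant pool, against 82793 and 81861 in the WT pool. Miox had 81959 and 91352 in the mutant pool, against 126096 and 119528 in the WT pool. Of 8 thick limb and distal tubule markers the median was 0.02, with 3 higher and 2 lower on both arrays, against 30.8% and 37.9% of all genes. With median centring their median was -0.18, with 1 higher and 5 lower, against 19.2% and 54.4% of all genes. Of 8 mesothelium markers 6 were measured, with a median of 0.01 and mesothelin, Msln, at 0.55. Of 10 gut and stomach markers 4 were measured, with a median of 0.12 and the galectin Lgals4 at 0.59. The gut genes Cdx1, Cdx2, Gkn1, Gkn2 and Muc2 were not well above background.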

How the data were processed

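The 9 genes, the lists and the alternatives were chosen with earlier results of these data known. The scanner files deposited by the authors hold spot and background intensities, and their processed signals are background-subtracted and dye-normalized intensities, per the file headers. Per the file headers, the software's LogRatio column is the log10 of red (Cy5) over green (Cy3), and other columns are control types and quality flags. The deposited value table holds log2 ratios of mutant over WT, as found by setting it against the scanner's ratios (r = 0.9996 and 0.9997, median 0 on each array). Agilent Feature Extraction is version 8.1 in the submitters' processing notes and 9.1.3.1, with protocol GE2-v5_91_0806, in the file headers.

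In R 4.3.3 with limma 3.58.1, background was corrected by normexp (offset 50), followed by within-array loess in which control spots had weight 0. Flagged outlier spots (18 and 26) were left out, spots of a probe were averaged, and the sign of the array with mutant RNA in Cy3 was turned. A gene took its brightest probe that, on both arrays, was well above background in at least 1 genotype. A count needed a 2-fold ratio in the same direction on both arrays. The steps were tested on simulated data with known folds put on brighter probes only, so ratios of dim probes were not tested in that way. Of 41174 probes, 22951 had an accession found in RefSeq, among them 11 of the 12 member probes. Such probes took the RefSeq symbol and the others kept the array's name. The 12 member probes were all assigned by the array's gene name, with older symbols counted. Sequences are the array's own probes and RefSeq promoters of GRCm38.p6, which held 8 of the 9 members. Promoters were aligned with Biopython 1.88. The number of arrays and pools limits the precision.

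Named genes were the 9 members, Glis3, up to 4 genes per list with the ratios farthest from 0, and the genes next to Sprr2f, Krt18 and Krt8 in the order of ratios, with other genes marked as singled out after their values were seen.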

Additional observations from a re-analysis of the deposited data

How the results depend on the processing

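The sign of a member's ratio changed for Sprr2b with median centring and for Sprr2a on 1 array alone, and for no other member. Sprr2f, 1 of 9 members, was at least 2-fold higher and no member 2-fold lower under every alternative at that fold: the scanner software's ratio, the deposited value table, no background correction, an offset of 16, median centring, either array alone, no filter on dim probes and a filter on both genotypes. Values that moved were as follows. With median centring the ratios were 0.55 for Krt18, 0.47 for Krt8, 0.20 for Krt7, 0.16 for Krt19, 0.10 for Sprr1a, -0.39 for Sprr2a, -0.09 for Sprr2b and 1.90 for Sprr2f. That setting leaves out the correction for brightness that loess makes. Sprr2f was at 2.40 in the scanner's ratio and in the value table and at 2.20 with an offset of 16. The offset was the single choice changed in that last value, and the scanner's ratio and the table differ in background correction and dye normalization too. Sprr2a was at -0.26 on the array with Cy3-labelled mutant RNA alone, at 0.08 on the array with Cy5-labelled mutant RNA alone and at -0.23 as the mean over its probes, and the cause was not tested. The dimmer probes, added after the data were examined, gave 0.65 for Krt7, 0.59 for Krt8 and -0.38 for Sprr2a. Over all genes, the scanner's ratio and the value table gave 22 higher and 153 lower, an offset of 16 gave 61 lower, and 13 were higher on the array with Cy5-labelled mutant RNA alone. A fold of 1.5, also added, gave 3 members, 53 genes higher and 131 lower, and with median centring as well it gave 1 member, 22 genes higher and 255 lower. In all, 28 values moved and 91 did not, but not all of the 91 could move. For a member with 1 probe the mean over its probes is the main value. The value table holds nearly the same ratios as the scanner software, so these settings are not separate checks. No paired analysis was possible because PND3 has 1 pool per genotype, and the test of the arrays of embryonic day 15.5 with its alternatives was not run. Gene names of probes are those of the array or RefSeq, and no probe was aligned to a genome.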

Other observations

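Transcription factors known to act on keratin or Sprr genes were read from a list of 18, of which 17 were measured. Their median was 0.08, with 10 higher and 5 lower on both arrays, against 30.8% and 37.9% of all genes. None was 1.5-fold apart, against 0.253% of all genes higher and 0.626% lower by that much. Klf5, a factor of proliferating epithelia, had signals of 883.0 and 812.0 in the mutant pool, against 586.2 and 518.3 in the WT pool, a ratio of 0.57. Elf5, an ETS factor also found in collecting duct, stood at 0.45 with 5076 and 4436 in the mutant pool, against 3599 and 3360 in the WT pool. The AP-1 subunit Fosl2 stood at 0.29 and Trp63, the master factor of stratified epithelia, at -0.23. With median centring 6 of the list were higher and 7 lower, against 19.2% and 54.4% of all genes.

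Genes known to respond to tubule injury, a setting in which kidney keratins are known to be induced, were all 16 measured. Their median was -0.09, with 4 higher and 9 lower on both arrays, against 30.8% and 37.9% of all genes. With median centring 3 were higher and 12 lower, against 19.2% and 54.4% of all genes. Lcn2 stood at 0.45, with 169.9 and 157.1 in the mutant pool, against 113.0 and 86.6 in the WT pool. Anxa2 stood at 0.36, while Cd44 and Ccl2 stood at -0.42 each. Other intermediate filament genes (9 measured) had a median of 0.00, with Synm, synemin, at 0.54, Des, desmin, and Lmnb2, a nuclear lamin, at 0.19 each and Vim, vimentin, at -0.18.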
